A study of Homo sapiens and Mus musculus with 8 samples.

Results

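The genes of the synaptic vesicle, of its release machinery and of the neuronal cytoskeleton were followed in 2 small cell lung cancer lines treated with decitabine. The set holds 45 genes, named by symbol and matched ignoring case, and 45 of the 45 were present both in the human table of 20863 genes and in the mouse table of 16833. The members fall into 5 roles, which were kept apart: 15 genes of the vesicle, 7 of the release machinery, 3 of adhesion, 14 of neurites and cytoskeleton and 6 of neuronal RNA-binding or cytosolic proteins. RNA sequencing gave 8 libraries, 2 per arm. NCI-H146, called H146 here, is a human line, and 2 vehicle libraries were compared with 2 from cells given 0.5 µM decitabine for 96 h. F1339 is a mouse line, with 2 vehicle libraries and 2 from cells given 0.5 µM decitabine for 72 h. What the vehicle was, and whether F1339 is 1 clone, is not given in the sources used here. Decitabine is a cytosine analogue that is built into DNA and removes DNMT1, the enzyme that copies CpG methylation to new strands, and the study was set up to ask whether this depletion drives the cells to mature.

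Small cell lung cancer is a neuroendocrine tumour, and its cells store hormones and peptides in vesicles that they release with much of the machinery of a nerve terminal. VAMP2 on the vesicle pairs with SNAP25 and STX1A on the plasma membrane to form the SNARE complex, complexins hold that complex ready, and synaptotagmins trigger fusion when calcium enters. Microtubule proteins such as tau, the stathmins and the CRMP family shape the outgrowing neurite, and in cells that are not neurons many of these genes are held silent by the repressor REST, which binds a DNA element called RE1.

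The promoters of 4 members are printed from RefSeq (GRCh38.p14, 250 bases before to 50 after an annotated start, read along the gene). SYT5 and CPLX2 were the members with the largest increases in H146. Among members with a matched promoter, SYN1 and UNC13A were those that held the left part of RE1. In the SYT5 promoter (chr19:55180240-55180539, minus strand) and the CPLX2 promoter (chr5:175796283-175796582, plus strand) capitals mark CpG sites, the sites that DNMT1 keeps methylated. In the SYN1 promoter (chrX:47619808-47620107, minus strand) and the UNC13A promoter (chr19:17688305-17688604, minus strand) capitals mark parts of the RE1 element.
SYT5: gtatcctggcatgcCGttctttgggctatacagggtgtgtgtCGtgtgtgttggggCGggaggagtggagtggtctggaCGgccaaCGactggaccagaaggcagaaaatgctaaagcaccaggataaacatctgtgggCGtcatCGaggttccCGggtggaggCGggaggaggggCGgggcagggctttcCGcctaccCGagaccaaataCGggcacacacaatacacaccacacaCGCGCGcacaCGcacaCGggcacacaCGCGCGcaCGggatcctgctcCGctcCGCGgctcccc
CPLX2: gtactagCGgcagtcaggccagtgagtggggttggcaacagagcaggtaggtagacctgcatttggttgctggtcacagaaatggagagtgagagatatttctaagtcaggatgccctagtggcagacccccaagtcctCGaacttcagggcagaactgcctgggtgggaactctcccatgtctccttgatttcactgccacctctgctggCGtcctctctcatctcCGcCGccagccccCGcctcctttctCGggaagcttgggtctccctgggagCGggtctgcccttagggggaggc
SYN1: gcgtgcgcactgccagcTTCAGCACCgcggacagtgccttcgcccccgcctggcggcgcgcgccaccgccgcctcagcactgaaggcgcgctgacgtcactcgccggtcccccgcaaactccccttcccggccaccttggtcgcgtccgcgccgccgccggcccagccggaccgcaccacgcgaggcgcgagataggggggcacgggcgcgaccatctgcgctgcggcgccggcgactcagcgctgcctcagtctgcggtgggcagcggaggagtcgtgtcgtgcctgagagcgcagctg
UNC13A: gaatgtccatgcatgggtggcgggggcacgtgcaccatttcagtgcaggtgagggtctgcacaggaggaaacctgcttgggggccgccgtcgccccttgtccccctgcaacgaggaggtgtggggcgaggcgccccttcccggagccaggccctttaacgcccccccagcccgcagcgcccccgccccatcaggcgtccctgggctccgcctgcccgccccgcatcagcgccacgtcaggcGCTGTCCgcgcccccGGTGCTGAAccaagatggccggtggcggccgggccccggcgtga

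The SYT5 window held 25 CpG and the CPLX2 window 8, and SYT5 has 2 annotated promoters in the table. RefSeq promoters were matched for 32 of the 45 members, 62 promoters in all, since several genes have more than 1 start. Their median was 22 CpG, against 14 over 35116 promoters of the same 300 bases. The medians were 26 for the 10 promoters of members that rose in H146, 21.5 for the 4 of members that fell and 20 for the 48 of members not called. No promoter was matched for the called members CPLX1, SNAP25, STMN2, NCAM1, MAPT, RIMS2 and SYT7. The same held for ELAVL3, NEFL, NEFM, STMN4, NRXN2 and SYT13, so none of these was counted or searched. A list of 7 motifs was searched on both strands. The left part of RE1, TTCAGCACC, was in 2 of 62 member promoters (3.23%) and in 0.376% of all promoters: it begins at base 18 of the SYN1 window, and in UNC13A its reverse complement GGTGCTGAA begins at base 257, beside GCTGTCC, the reverse complement of the right part GGACAGC, at base 242. Only exact matches were counted. In SYN1 the left part is followed, after gc, by ggacagt, which differs from GGACAGC in its last base and is not marked. In UNC13A the letters gcgccccc lie between the 2 parts. SYN1 rose and UNC13A fell in H146. For the other motifs the member share stood at 4.84% against 6.03% for GGACAGC, 9.68% against 17.9% for CAGCTG, 17.7% against 14.7% for CAGATG, 1.61% against 1.85% for TGACGTCA, 11.3% against 11.5% for TATAAA and 51.6% against 15786 of the 35116 promoters for GGGCGG. Which start these cells use is not known, no methylation value was analysed here, and a match describes the letters only.

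Recovered reads per library ranged from 62462654 to 67108249 in H146 and from 61364041 to 67892360 in F1339, and 1 read was worth 0.960 to 1.08 normalized counts, the unit used below. A normalized count is a gene's read count after the authors' scaling, 1 factor for each library. A gene was tested if 10 or more normalized counts were found in 2 or more of its line's 4 libraries, which left 20783 genes in H146 and 16680 in F1339, and 45 members in each. In F1339 Stx1a passed only through its decitabine libraries. A gene is said to have risen or fallen where limma gave a Benjamini-Hochberg adjusted p under 0.05 over all genes tested, changes are log2(normalized count + 1) of decitabine minus vehicle with their SE, and folds are ratios of mean normalized counts.

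In H146 the vesicle, release and neurite genes moved both ways. Of the 45 members 10 rose, 7 fell and 28 were not called. Over all genes tested 15.4% rose and 12.3% fell, and the member shares were 22.2% and 15.6%. The median change of the members was 0.09, against -0.01 over all genes tested, but 0.00779 without vehicle library 2 and 0.02 without decitabine library 2. The arms did not overlap for 19 members that were higher with decitabine and 12 that were lower, 42.2% and 26.7% of members, where 31.5% and 30.6% of all genes did so. The calls of SYT5, CPLX1, CPLX2 and SNAP25 held under every one of 14 alternative settings. The other 13 were lost when the variance was not modelled as a trend with level, with adjusted p from 0.0721 for RTN1 to 0.251 for SYN1, and 11 of these were also lost when 1 library was left out, as given below. RNA came from whole cultures, so fewer cells of a type and less RNA per cell cannot be told apart.

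**Figure D1:**
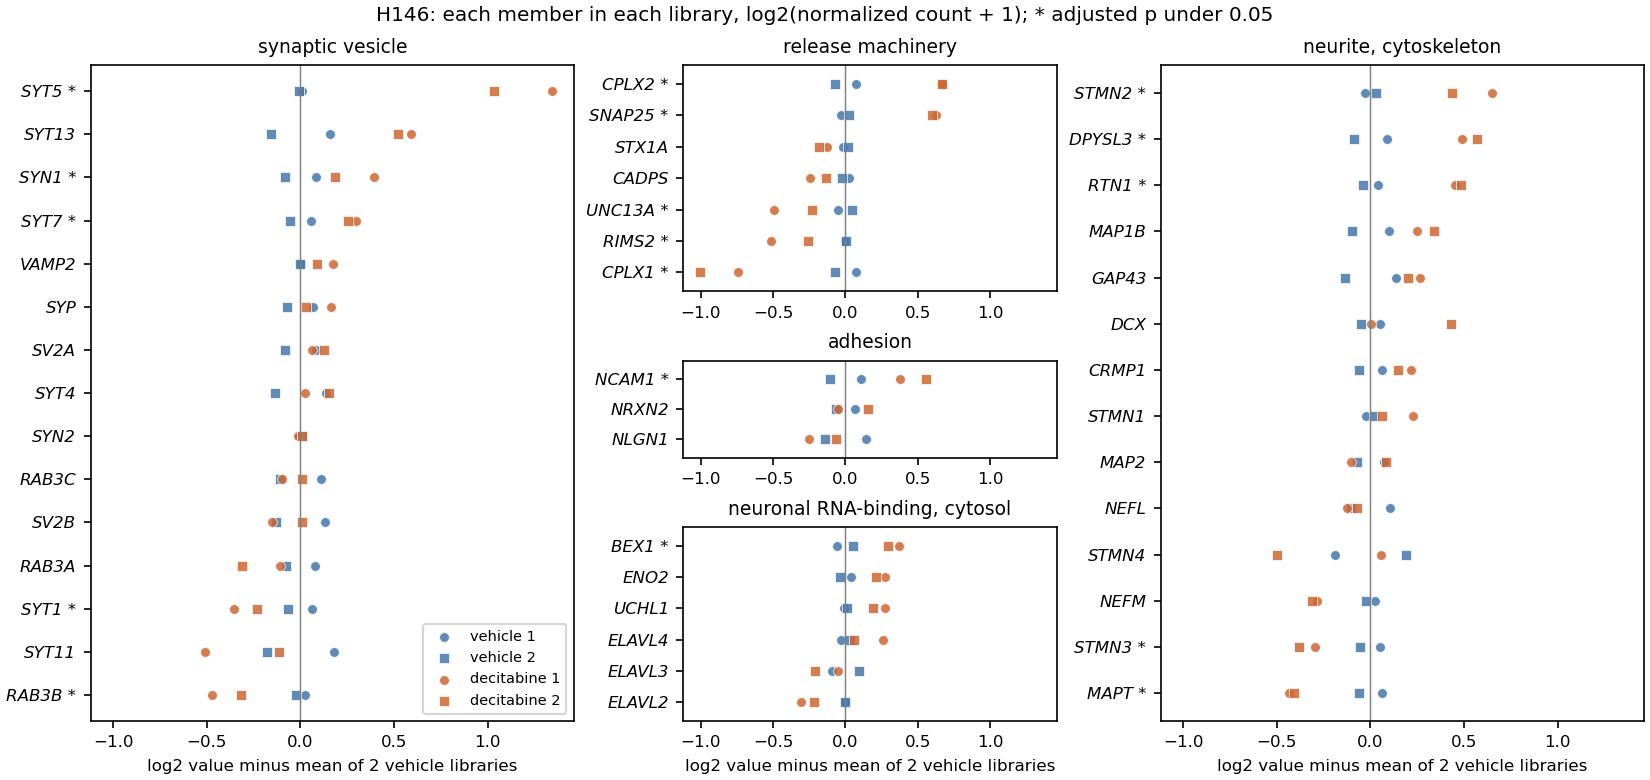
Each of the 45 members in each H146 library, as log2(normalized count + 1) minus the mean of the 2 vehicle libraries, grouped by role. Circles are libraries numbered 1, squares libraries numbered 2, blue vehicle and orange decitabine, and an asterisk marks an adjusted p under 0.05: SYT5, CPLX2 and SNAP25 lie well to the right of their vehicle points and CPLX1 well to the left.

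Among the vesicle genes of H146, 3 rose and 2 fell of 15, with a median change of 0.09. These were 20.0% and 13.3%, against 15.4% and 12.3% of all genes tested. SYT5, one of the calcium-binding synaptotagmins (ENSG00000129990, GRCh38 chr19:55171199-55180441), had 1131 and 1119 normalized counts in the vehicle libraries and 2855 and 2302 in the decitabine libraries. The lower treated library was above both vehicle libraries by about the vehicle level itself. This was a 2.29-fold increase, a change of 1.19 ± 0.11 (limma, adjusted p = 1.3e-08). SYN1, the synapsin that ties vesicles into a pool, had 6082 and 5422 in vehicle and 7552 and 6528 in decitabine (0.29 ± 0.10, adjusted p = 0.0396). SYT7, a slow calcium sensor of high affinity, had 2795 and 2590 in vehicle and 3304 and 3212 in decitabine (0.28 ± 0.10, adjusted p = 0.0416). In both genes the arms did not overlap, but the calls were lost without vehicle library 2 (adjusted p = 0.263 for SYN1 and 0.227 for SYT7), without decitabine library 1 (0.380 and 0.210) and without decitabine library 2 (0.0650 and 0.143).

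The vesicle genes that fell in H146 were RAB3B and SYT1. RAB3B, a small GTPase of secretory vesicles, had 23775 and 22987 in vehicle and 16873 and 18782 in decitabine (-0.39 ± 0.11, adjusted p = 0.0081). SYT1, the sensor of fast release, had 19811 and 18125 in vehicle and 14843 and 16131 in decitabine (-0.29 ± 0.11, adjusted p = 0.0431). Neither gene's arms overlapped, though the RAB3B call was lost without decitabine library 1 (adjusted p = 0.170) and the SYT1 call without vehicle library 1 (0.221), decitabine library 1 (0.308) or decitabine library 2 (0.117). SYP, synaptophysin, the vesicle protein used to diagnose neuroendocrine tumours, had 20643 and 18750 in vehicle and 22067 and 20057 in decitabine, with overlapping arms (0.10 ± 0.11, adjusted p = 0.564). The other vesicle genes that were not called ran from -0.31 for SYT11 to 0.56 for SYT13, which had only 73.9 to 125 normalized counts. Between them lay RAB3A at -0.21, SV2B at -0.07, RAB3C at -0.04, SYN2 at -0.00, SYT4 at 0.09, SV2A at 0.09 and VAMP2 at 0.13.

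The release genes of H146 were the group with the largest share called, 2 higher and 3 lower of only 7. These were 28.6% and 42.9%, against 15.4% and 12.3% of all genes tested, and the median change was -0.19. SNAP25, the membrane SNARE cleaved by botulinum toxin A (ENSG00000132639, GRCh38 chr20:10218830-10307418), had 10932 and 11356 normalized counts in vehicle and 17178 and 16891 in decitabine. The 2 arms were tight and far apart, a 1.53-fold increase (0.61 ± 0.10, adjusted p = 5.4e-05). STX1A, its partner SNARE, had 5996 and 6126 in vehicle and 5537 and 5335 in decitabine, arms that did not overlap but no call (-0.16 ± 0.10, adjusted p = 0.249).

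The complexins moved in opposite directions. CPLX2 (ENSG00000145920, GRCh38 chr5:175796310-175884020) had 7819 and 7076 in vehicle and 11800 and 11831 in decitabine, a 1.59-fold increase (0.67 ± 0.10, adjusted p = 1.5e-05). CPLX1 (ENSG00000168993, GRCh38 chr4:784957-826198) had 7617 and 6900 in vehicle and 4342 and 3619 in decitabine, 1.82-fold lower (-0.87 ± 0.11, adjusted p = 6.4e-07). Both proteins clamp and then promote the SNARE complex, and in neither gene did any treated library reach the vehicle range. Per kb of exon, the CPLX2 level was 0.3497 and 0.3493 of the CPLX1 level in the vehicle libraries and 0.926 and 1.11 of it in the decitabine libraries. In the same per-kb measure the SNAP25 over STX1A ratio went from 2.01 and 2.04 to 3.41 and 3.48, and the SYT5 over SYT1 ratio from 0.0694 and 0.0750 to 0.234 and 0.173. No test was run on these ratios, which describe the levels above. They rest on the annotated exon length of each gene, 7099 bases for CPLX2 and 2418 for CPLX1. Which transcripts these cells make was not examined, so the level of 1 gene against another is uncertain.

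**Figure D2:**
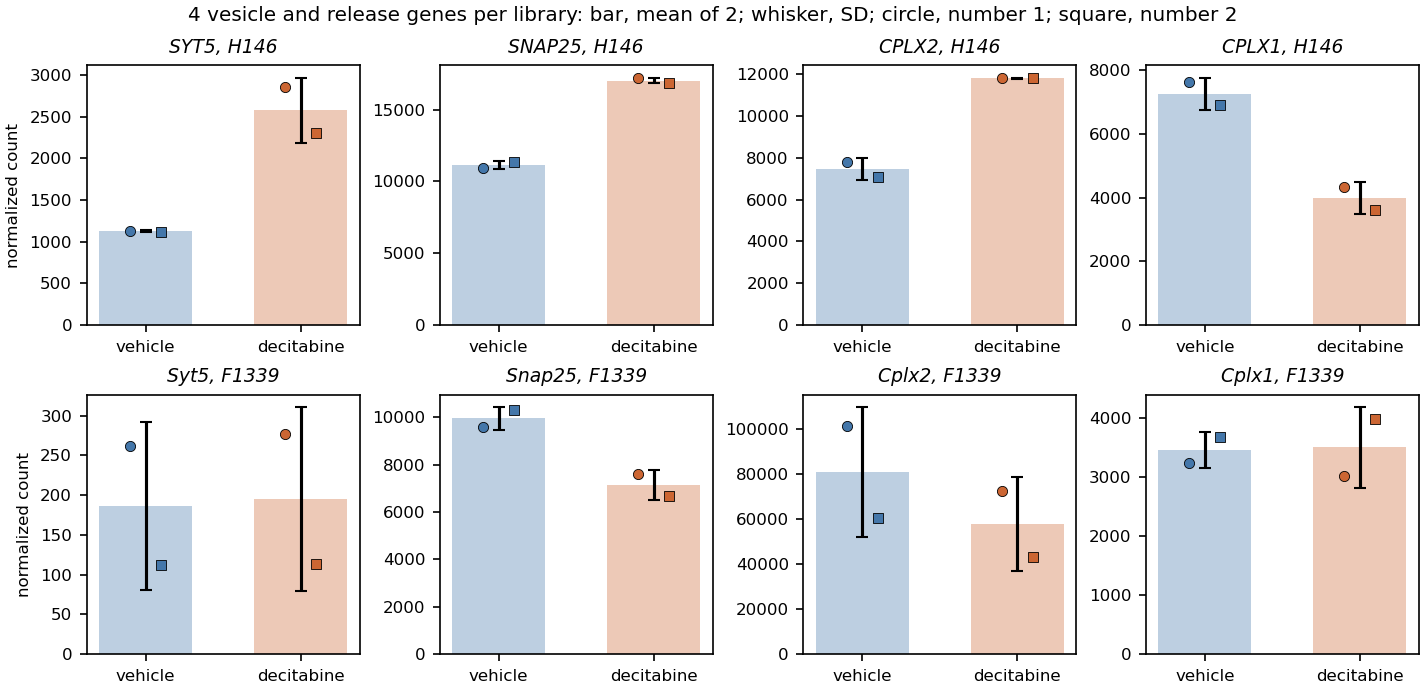
Normalized counts of SYT5, SNAP25, CPLX2 and CPLX1 in each library of H146 (upper row) and F1339 (lower row); bars are the mean of 2 libraries, whiskers the SD, circles libraries numbered 1 and squares libraries numbered 2. In H146 the arms stand apart for all 4 genes, and in F1339 the arms of Syt5, Cplx2 and Cplx1 overlap while Snap25 is lower with decitabine.

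UNC13A, which primes vesicles for fusion, and RIMS2, a scaffold of the active zone, both fell in H146. UNC13A had 10920 and 11668 in vehicle and 8034 and 9638 in decitabine (-0.36 ± 0.11, adjusted p = 0.0132), and its call was lost without vehicle library 2 (adjusted p = 0.0692) or decitabine library 1 (0.272). RIMS2 had 3495 and 3503 in vehicle and 2449 and 2919 in decitabine (-0.39 ± 0.10, adjusted p = 0.0068), and its call was lost without decitabine library 1 (0.180). CADPS, which primes dense-core vesicles, went from 6675 and 6471 to 5536 and 5999, arms that did not overlap, without a call (-0.19 ± 0.10, adjusted p = 0.162).

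Of the adhesion genes of H146, NCAM1 rose. NCAM1 encodes CD56, a diagnostic surface marker of this tumour, and had 17131 and 14810 in vehicle and 20680 and 23450 in decitabine (0.47 ± 0.11, adjusted p = 0.0026). Its arms did not overlap, and the call was lost without decitabine library 2 (adjusted p = 0.113). NLGN1, a postsynaptic adhesion protein, had 3219 and 2641 in vehicle and 2453 and 2784 in decitabine (-0.16 ± 0.11, adjusted p = 0.315), and the presynaptic NRXN2 had 461 and 420 against 425 and 491 (0.05 ± 0.14, adjusted p = 0.824). Both sets of arms overlapped.

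Among the 14 neurite genes of H146, 3 rose, 2 fell and 9 were not called, with a median of 0.16. The shares that rose and fell were 21.4% and 14.3%, against 15.4% and 12.3% of all genes tested. STMN2, the neuronal stathmin of growing axons, had 7110 and 7387 in vehicle and 11355 and 9808 in decitabine, a 1.46-fold increase (0.54 ± 0.10, adjusted p = 0.000256). DPYSL3, also called CRMP4, had 23550 and 20812 in vehicle and 31044 and 32910 in decitabine (0.53 ± 0.11, adjusted p = 0.000925). RTN1, an endoplasmic reticulum protein of neuroendocrine cells, had 1433 and 1360 in vehicle and 1911 and 1956 in decitabine (0.47 ± 0.11, adjusted p = 0.0015). All 3 had arms that did not overlap. The DPYSL3 call was lost without decitabine library 2 (adjusted p = 0.0560), and the STMN2 and RTN1 calls held with any 1 library left out.

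The neurite genes that fell in H146 were STMN3 and MAPT. STMN3, another neuronal stathmin, had 40543 and 37655 in vehicle and 31833 and 29971 in decitabine (-0.34 ± 0.12, adjusted p = 0.0322). MAPT, which encodes tau, had 9711 and 8907 in vehicle and 6874 and 7003 in decitabine (-0.42 ± 0.10, adjusted p = 0.0022). The treated libraries of both genes lay below both vehicle libraries. The STMN3 call was lost without vehicle library 1 (adjusted p = 0.143), decitabine library 1 (0.147) or decitabine library 2 (0.247), and the MAPT call without decitabine library 1 (0.0572). Per kb of exon the STMN2 level was 0.225 and 0.252 of the STMN3 level in vehicle and 0.458 and 0.420 of it in decitabine.

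The neurite genes with the most normalized counts in H146, not corrected for length, were not called. MAP1B, a microtubule protein of growing axons, had 156682 and 136811 in vehicle and 173948 and 185291 in decitabine (0.29 ± 0.17, adjusted p = 0.201), though the authors' deposited table gives it an adjusted p of 0.0185. STMN1, the stathmin of dividing cells, had 47800 and 49226 in vehicle and 56810 and 50631 in decitabine (0.14 ± 0.13, adjusted p = 0.435). In both the arms did not overlap. CRMP1 stood at 0.18, DCX, the doublecortin of migrating neurons, at 0.22, MAP2 at -0.01 and the growth cone protein gene GAP43 at 0.23. The neurofilament genes NEFL (157 to 182 in vehicle, 155 to 160 in decitabine) and NEFM (317 to 328 and 260 to 264) and STMN4 (110 to 144 and 88.9 to 131) were at low levels, and none was called.

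Of the RNA-binding and cytosolic genes of H146 only BEX1 rose of 6 (16.7%, against 15.4% of all genes tested), and the median was 0.20. BEX1, a small adaptor protein of brain and endocrine cells, had 16753 and 18089 in vehicle and 22491 and 21339 in decitabine (0.33 ± 0.11, adjusted p = 0.0226). Its arms did not overlap, and its call was lost without vehicle library 1 (adjusted p = 0.134), decitabine library 1 (0.196) or decitabine library 2 (0.103). BEX2 is a close copy of BEX1, so the split of reads between them is uncertain.

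UCHL1 and ELAVL3 had the most normalized counts of this group, not corrected for length. UCHL1, the ubiquitin hydrolase known as PGP9.5, had 73730 and 75000 in vehicle and 89701 and 84767 in decitabine (0.23 ± 0.14, adjusted p = 0.231). ELAVL3, one of the Hu proteins that patients with this cancer can raise antibodies against, had 37599 and 42825 in vehicle and 38796 and 34649 in decitabine (-0.13 ± 0.12, adjusted p = 0.475). The UCHL1 arms stood apart and the ELAVL3 arms overlapped. ENO2, neuron-specific enolase, changed by 0.24 ± 0.11 (adjusted p = 0.101), ELAVL4 by 0.16 and ELAVL2, at 174 to 216 normalized counts, by -0.26. Per kb of exon the highest vehicle levels in the set were those of UCHL1 (32588 ± 393, mean and SD of 2), BEX1 (20164 ± 1093) and STMN3 (12895 ± 673), and the lowest was that of SYT13 (15.3 ± 2.4).

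The authors' deposited table called 20 of the 45 members in H146: the 17 named above and ENO2, MAP1B and UCHL1. Its share over all genes was not counted here. DESeq2 run here on recovered reads also called 20 members, 44.4%, against 23.4% of all genes tested. Exons of another gene overlap those of 13 members on the opposite strand and of 6 on the same strand in GENCODE release 29. Among called members SYN1 overlaps ARAF, at a mean of 5058 normalized counts, NCAM1 overlaps AP000802.1 (214) and NCAM1-AS1 (26.2), and SYT7 overlaps AP003559.1 (64.2), while the overlapping partners of SYT1, MAPT and RIMS2 are not listed. Among members not called, STX1A overlaps BUD23 (8661) and RAB3A overlaps MPV17L2 (4534), both on the opposite strand. The mean levels of STX1A and RAB3A themselves were 5748 and 2638. Strandedness of the counts is not given in the sources used here, so reads of opposite genes cannot be told apart. This also limits the SNAP25 over STX1A ratio.

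In F1339 limma called no member with treatment as the only term of the fit. With the library number as a further term it called 20.0% of members, against 7.94% of all genes, as given in the closing section. The labels do not say what the number marks. limma called 0 of the 45 and 0.0% of all 16680 genes, edgeR also called 0 members, and 8 members had an unadjusted p under 0.05, 17.8% of members against 5.59% of all genes. DESeq2 called 2 members, DCX and CADPS, both lower, among the 0.18% of all genes it called lower, and these are the 2 that the authors' deposited table calls (adjusted p = 0.0112 and 0.0436). The median change of members was -0.04, against -0.01 over all genes, but 0.00 with libraries rescaled to the same upper quartile and 0.05 with the same total. The arms did not overlap for 4 members that were higher (8.89%, against 17.9% of all genes) and 13 that were lower (28.9%, against 18.0%). Stx1a, which passed the filter only through its decitabine libraries, is among these 4 and among the 8 with an unadjusted p under 0.05.

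The F1339 members with the lowest unadjusted p were a neurite gene and release genes. Dcx had 8236 and 9367 normalized counts in vehicle and 5554 and 5361 in decitabine (-0.69 ± 0.13). Cadps had 3728 and 3724 in vehicle and 2472 and 1999 in decitabine (-0.74 ± 0.16). Snap25 had 9597 and 10290 in vehicle and 7582 and 6683 in decitabine (-0.48 ± 0.13). In these 3 genes both treated libraries were below both vehicle libraries, and the limma adjusted p was 0.890 for each. Map2 went from 7764 and 7659 to 6310 and 5531 (-0.38 ± 0.13), and Rims2 from 2806 and 2667 to 2248 and 1942 (-0.39 ± 0.15), also without overlap and without a call.

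Syt7 and Syt11 had the most normalized counts of the vesicle genes of F1339, not corrected for length. Syt7 had 17007 and 17264 in vehicle and 13176 and 14331 in decitabine (-0.32 ± 0.11, adjusted p = 0.890), and Syt11 had 12285 and 11979 in vehicle and 12141 and 15047 in decitabine (0.16 ± 0.15, adjusted p = 0.916). The Syt7 arms stood apart and those of Syt11 overlapped. Syt5 was low, at 261 and 112 in vehicle and 277 and 113 in decitabine. Stx1a was near the detection limit: its vehicle libraries held 8 reads in all and its decitabine libraries 38, or 5.40 and 2.93 against 16.7 and 20.2 normalized counts (1.95 ± 0.53, adjusted p = 0.890). In H146 STX1A had 5335 to 6126 normalized counts, but the tables were normalized separately, and a level was not tested between lines.

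The other members of F1339 with many normalized counts were not called either. Cplx2 had 101149 and 60340 in vehicle and 72327 and 43074 in decitabine (-0.49 ± 0.36, adjusted p = 0.907), overlapping arms. Ncam1 went from 15593 and 12063 to 14812 and 15730 (0.15 ± 0.16), Nrxn2 from 12356 and 12873 to 12142 and 12317 (-0.04 ± 0.11) and Nlgn1 from 1749 and 1228 to 1050 and 639 (-0.84 ± 0.32, adjusted p = 0.890). Of these adhesion genes, Nlgn1 and Nrxn2 had arms that did not overlap, both lower with decitabine. Stmn1 had 149478 and 150470 in vehicle and 122985 and 129979 in decitabine (-0.25 ± 0.13), and Map1b 30170 and 38147 against 35324 and 64687 (0.49 ± 0.32). Uchl1 had 39353 and 46391 against 37047 and 39081 (-0.17 ± 0.14), and Elavl3 18719 and 24404 against 17765 and 25341 (-0.01 ± 0.23). The Map1b and Elavl3 arms overlapped, and those of Stmn1 and Uchl1 did not.

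In F1339 the neurite genes differed between the libraries numbered 1 and 2. Of the 14 neurite genes, 11 were higher in both libraries numbered 2 than in both numbered 1 (78.6%) and 0 were lower. Among all 45 members 17 were higher so (37.8%, against 26.2% of all genes) and 7 lower (15.6%, against 26.4%). The arms did not overlap for 3 neurite genes, all lower with decitabine. Of all genes, 18.0% were lower and 17.9% higher with arms that did not overlap. Stmn2 had 485 and 6159 in vehicle and 751 and 6477 in decitabine, so the library numbered 2 was 12.7 and 8.62 times the library numbered 1. Stmn4 had 473 and 3257 in vehicle and 635 and 3316 in decitabine (6.89 and 5.22 times). Nefl had 489 and 2811 against 666 and 2291, and Nefm 769 and 2915 against 1056 and 4856. In all 4 of these genes both libraries numbered 2 were above both numbered 1, and the arms overlapped.

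Further neurite genes of F1339 shared the pattern at smaller ratios. Mapt had 1704 and 4728 in vehicle and 2045 and 5039 in decitabine (2.77 and 2.46 times), and Dpysl3 11504 and 23709 against 12489 and 23277 (2.06 and 1.86 times). The rest were Stmn3, Map1b, Gap43, Crmp1 and Rtn1, the last at only 1.02 and 1.09 times. The change with decitabine had an SE of 1.55 for Stmn2, 1.19 for Stmn4 and 0.95 for Nefm, against 0.13 for Dcx. Vesicle genes went both ways with the number, 4 above and 6 below of 15. These were 26.7% and 40.0%, against 26.2% and 26.4% of all genes. Syt5 in the libraries numbered 2 was at 0.429 and 0.409 of those numbered 1. Syt1 was at 0.626 and 0.571, Rab3c at 0.684 and 0.598, and of the release genes Cplx2 at 0.597 and 0.596.

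**Figure D3:**
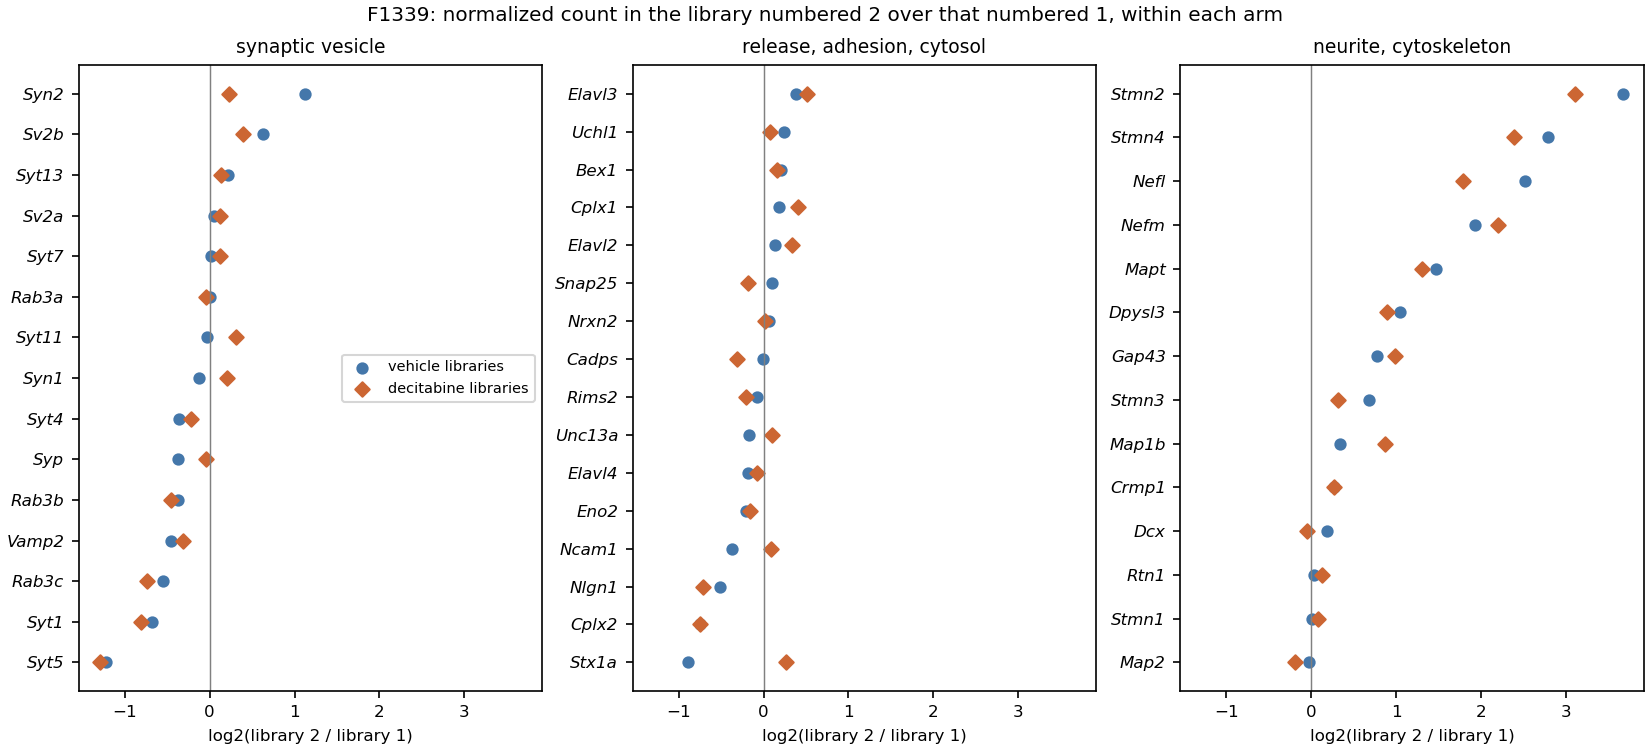
For each member in F1339, log2 of the normalized count in the library numbered 2 over that numbered 1, within the vehicle arm (blue circles) and within the decitabine arm (orange diamonds). Most neurite genes lie to the right of 0 in both arms, led by Stmn2 at 12.7 and 8.62 times, and vesicle genes lie on both sides.

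Neuroendocrine markers differed with these library numbers too. Of 10 tested in F1339, 7 were lower in both libraries numbered 2 (26.4% of all genes were), and their summed normalized counts were 400375 and 259503 in vehicle and 302627 and 206458 in decitabine. Fibroblast markers (5 of 10 tested, Col1a2, Col3a1, Lum, Fap and Postn not listed) summed to 1883 and 1827 in vehicle and 1814 and 2118 in decitabine. Immune markers were unlisted except Cd68, at 47.5 to 102. Glial markers (4 of 10 tested) summed to 23684 and 20733 in vehicle and 16782 and 14737 in decitabine, mostly Mbp, and other epithelial and endothelial markers (8 tested) to 3380 and 3747 against 3876 and 4128. The part of any of these in the member values was not tested.

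In H146 the neuroendocrine markers were all tested, 10 of 10, with 2 higher and 2 lower, and summed to 238663 and 239587 in vehicle and 216102 and 204417 in decitabine. Over all genes tested 15.4% rose and 12.3% fell, and each of these marker lists holds at most 10 genes. Among markers of other cell types, more than 15.4% rose in the fibroblast list and in the epithelial and endothelial list. The immune list, at 12.5% each way, and the glial list, at 11.1% each way, were near the shares over all genes. Whether any list differs from all genes was not tested. Of 7 fibroblast markers tested (LUM, FAP and POSTN not listed) 4 rose and 1 fell, with sums of 12156 and 11257 in vehicle and 16038 and 14947 in decitabine, mostly THY1, which neurons also express. Of 6 other epithelial and endothelial markers tested 3 rose and 1 fell, with sums of 2868 and 2617 against 5733 and 5360, mostly the ciliated cell factor FOXJ1 (SFTPC, SFTPB, SCGB1A1 and MUC5B not listed). Immune markers (8 tested, 1 higher and 1 lower) summed to 674 to 722 in vehicle and 697 to 733 in decitabine, and CD3E and CD68 were not listed. Glial markers (9 tested, 1 higher and 1 lower, SOX10 not listed) summed to 31179 to 36620 and 31258 to 34252. Their part in the member values was not tested.

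REST was at low levels in both lines. In H146 it had 16.0 and 15.4 normalized counts in vehicle and 30.0 and 29.9 in decitabine, 31 reads against 61 (0.89 ± 0.41, adjusted p = 0.115). In F1339 it had 21.6 and 33.2 in vehicle and 108 and 177 in decitabine, 54 reads against 294 (2.32 ± 0.46, adjusted p = 0.890). The REST arms stood apart in both lines. Of the 12 genes of REST and its partners limma called 0 in either line. Over all genes tested it called 27.7% in H146 and 0.0% in F1339. An unadjusted p under 0.05 was found for 2 of the 12 in H146, against 37.8% of all genes. In F1339 it was found for 1, against 5.59% of all genes.

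Genes of the same pathways outside the set were counted in H146 too. Of 80 further genes of vesicles, release and synaptic adhesion, 72 were tested, 9 rose (12.5%) and 11 fell (15.3%), with a median of -0.04, shares near the 15.4% and 12.3% over all genes tested. SYNGR4, a synaptogyrin, had 63.2 and 38.0 in vehicle and 651 and 487 in decitabine (3.495 ± 0.23, adjusted p = 9.4e-12). UNC13D, which primes granules of blood cells, had 17.1 and 28.7 against 156 and 123 (2.59 ± 0.31, adjusted p = 5.0e-07). RPH3A, a RAB3 effector, rose by 0.91, and SYT12 (-0.92), DOC2A (-0.76) and VAMP1 (-0.53) fell.

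Of 48 further neurite and neuronal genes in H146, 13 rose (27.1%) and 2 fell (4.17%), against 15.4% and 12.3% of all genes. Their median was 0.03. TCEAL2 had 340 and 291 in vehicle and 1241 and 1143 in decitabine (1.92 ± 0.13, adjusted p = 4.0e-11), and NES, nestin, rose by 0.84 and NSG1 by 0.80. KIF1A, the kinesin that carries synaptic vesicle precursors, had 123330 and 101399 in vehicle and 71704 and 77966 in decitabine (-0.58 ± 0.15, adjusted p = 0.0042). In F1339 limma called 0 of 70 tested vesicle and release genes and 0 of 47 neurite genes, with 7 and 3 at an unadjusted p under 0.05. Of all genes tested in F1339, 0.0% were called and 5.59% had an unadjusted p under 0.05. There 20 of the 47 neurite genes were higher in both libraries numbered 2 (42.6%) and 8 lower (17.0%). Of the 70 vesicle and release genes 15 were higher (21.4%) and 20 lower (28.6%). Over all genes tested in F1339 the shares were 26.2% and 26.4%.

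Between the lines, 6 members had arms that did not overlap in both and the same direction: RAB3A, RIMS2, CADPS and ELAVL2 were lower, and ENO2 and BEX1 higher. Another 6 had arms apart in opposite directions, among them STX1A, which was tested in F1339 only through its decitabine libraries. Each count is 13.3% of the members, where 15.3% of the 11845 genes tested under 1 symbol in both tables were apart the same way and 8.37% in opposite directions. RIMS2 changed by -0.39 in each line, but it was called in H146 and not in F1339. The plot of changes in both lines shows that the 4 members with the largest changes in H146 were not the 4 with the largest in F1339: CPLX1 was at -0.87 and 0.01 and SYT5 at 1.19 and 0.05. The difference between the lines, which also differ in species and hours of treatment, was not tested.

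**Figure D4:**
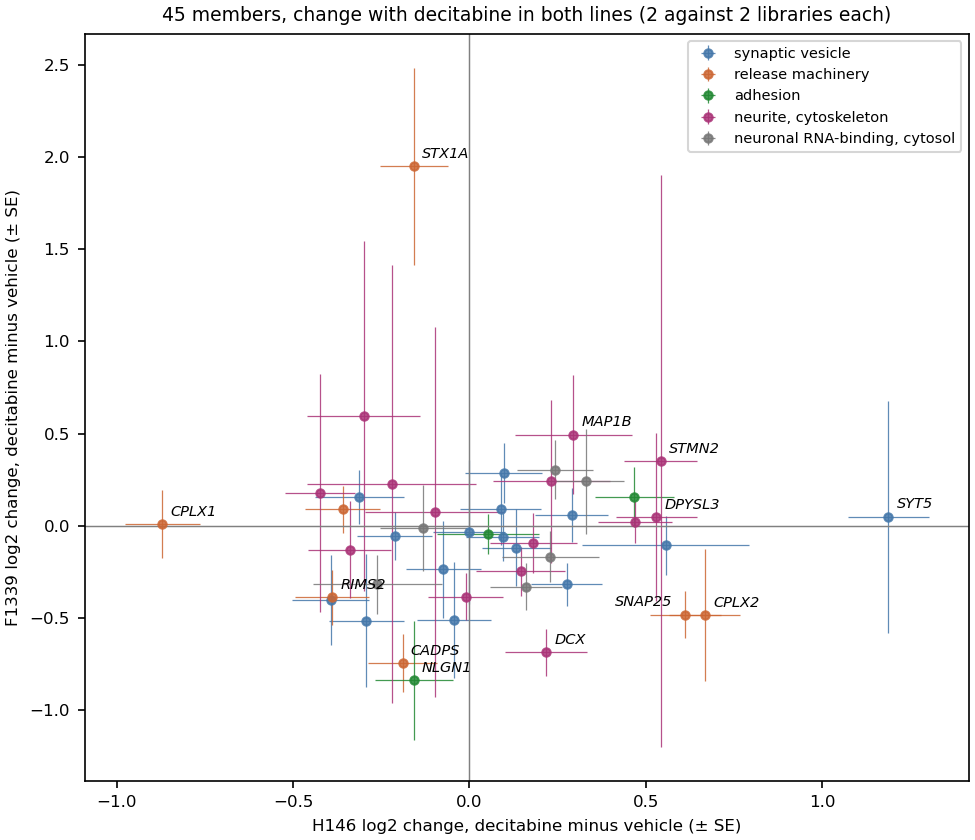
Change with decitabine, log2(normalized count + 1) of decitabine minus vehicle, in H146 (horizontal) and F1339 (vertical) for the 45 members, coloured by role, with bars of 1 SE on each axis (2 against 2 libraries per line). SYT5, CPLX1, CPLX2 and SNAP25 stand apart along the H146 axis, and STX1A, with few reads in F1339, along the F1339 axis at 1.95.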

How the data were processed

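RNA of 8 libraries was analysed, 2 per arm in each line, grouped by the labels; these call the libraries duplicates and do not say whether they are separate cultures, so p-values measure only the spread between these libraries, which may be technical. Per the submitters' processing notes, reads were trimmed with Trimmomatic 0.36, aligned with STAR 2.5.2b, counted with featureCounts of Subread 1.5.2 and normalized with DESeq2, and the build named is GRCh38, also for the mouse line; the sources used here name no mouse build, annotation or strandedness. The deposited values are a signal, 1 number for each gene in each library: reads counted on the gene and scaled by the authors with a size factor of that library. They also hold the authors' log2 fold changes and adjusted p-values per gene, which the authors' deposited table gives without replicate error. In each library 100% of the values were whole multiples of 1 read, within 0.001 read. No intervals are given for single values; depth limits genes of few reads, such as Stx1a in F1339 and REST.

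Here each line was fitted alone with limma 3.58.1 (R 4.3.3, eBayes with a variance trend) on log2(normalized count + 1) over genes that reached 10 in 2 or more of the 4 libraries, adjusted by Benjamini and Hochberg with a threshold of 0.05. On recovered reads DESeq2 1.42.0 and edgeR 4.0.16 served as alternatives, beside other pseudocounts, filters and scalings, no variance trend, a replicate block and leaving out each library. The fits were tested on simulated data. The members, lists and tests were chosen with earlier results of these data known. Values per library were given for the 12 called members with the largest changes in a line, the 2 most abundant of each role and, of related lists, up to 3 called genes each way with a mean of at least 50; the other called members, members of low adjusted or unadjusted p and marker genes were added after their values were seen. Positions and exon lengths are from GENCODE release 29 and promoters from RefSeq GRCh38.p14. No mouse genome was used here, and some genes that the naming rule covers are not reported here.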

Additional observations from a re-analysis of the deposited data

Results flagged for a closer look

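For 6 members (13.3%) the arms stood apart in both lines but in opposite directions, as they did for 8.37% of the 11845 genes tested under 1 symbol in both tables. The difference between the lines was not tested, and the values are H146 change minus F1339 change on the log2 scale. SNAP25, the membrane SNARE, differed by 1.09 (0.61 in H146 and -0.48 in F1339). SYT7, the slow calcium sensor, differed by 0.59 (0.28 and -0.32). STX1A differed by -2.11 (-0.16 and 1.95), with 8 vehicle reads against 38 decitabine reads in F1339, where it was tested only because of its decitabine libraries. ELAVL4 differed by 0.49 (0.16 and -0.33), UCHL1 by 0.40 (0.23 and -0.17) and STMN1 by 0.39 (0.14 and -0.25). Of these, limma called SNAP25 and SYT7 in H146 and none in F1339, where the adjusted p of the 6 was between 0.890 and 0.910.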

How the results depend on the processing

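The counts of H146 members called, 10 higher and 7 lower, became 3 and 1 with no variance trend, and 5 to 10 higher and 1 to 7 lower with 1 library left out, a fit in which the lone library of an arm is assumed to vary like the others. Of the 17 calls, 8 held without decitabine library 1, 10 without decitabine library 2 and 14 without either vehicle library, and 17 held under edgeR, DESeq2, both pseudocounts, both filters and both rescalings, with DESeq2 calling 13 and 7. The median change of the H146 members ran from 0.00779 to 0.12 without 1 library, and that of the F1339 members from -0.22 to -0.00241. In F1339 the 0 calls became 2 lower with DESeq2, DCX and CADPS. In H146 DESeq2 called 28.9% of members higher and 15.6% lower, against 12.9% and 10.5% of all genes. With the replicate number as a block, F1339 gave 1 member higher (NEFM) and 8 lower (MAP2, RAB3C, CPLX2, SNAP25, DCX, SYT1, CADPS and NLGN1). These were 2.22% and 17.8% of members, against 4.66% and 3.29% of all genes, 7.94% in either direction. With the same block H146 gave 9 and 7, losing SYT7, 20.0% and 15.6% of members against 14.1% and 10.9% of all genes. The labels do not say what the numbers mark, so the samples cannot be taken as paired by design. Deviations of same-numbered libraries from their arm means correlated at 0.685 over genes in F1339 and at -0.0336 in H146. In F1339 libraries of the same number shifted together, with 52.7% of all genes apart by number, against 17.4% in H146. The cause of these shifts was not tested. In F1339 some changes that were not called turned sign: NRXN2, -0.04, became 0.05 with libraries rescaled to the same total; ELAVL3, -0.01, turned positive in 6 settings, up to 0.25; NCAM1 became -0.03 without vehicle library 2; and STMN2, 0.35, became -1.48 without vehicle library 1 and -1.20 without decitabine library 2. There CPLX2, -0.49, came to -0.11 without vehicle library 1 or decitabine library 2, and MAP1B, 0.49, to 0.06 without decitabine library 2. No member changed from called higher to called lower or the reverse under any alternative run, and genes of few reads are limited by depth.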
